A study of Mus musculus with 8 samples.

Results

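The EGR and NR4A transcription factors and their companions form a set of 10 early response genes, Egr1, Egr2, Egr3, Nr4a1, Nr4a2, Nr4a3, Ier2, Ier3, Ier5 and Srf, taken from the 16341 genes counted in RNA-seq of 4T1 cells. They were matched by symbol to the Ensembl identifiers of the count table, and AP-1 factors were left out of the set. The set was put together with the difference between 4T1-Sca1+ and 4T1-Sca1- libraries in view, so the measured values of that contrast chose the genes. Their differences are given below as a description, and a call of the fit across all genes marks only on which side of its threshold a gene lay, not a test of the set.

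4T1 is a murine mammary carcinoma cell line, and SCA1, the product of Ly6a, is a surface antigen that marks subsets of stem-like and tumor cells. Cells stained with a PE-conjugated SCA1 antibody were separated on magnetic columns, which gave 4 libraries of 4T1-Sca1+ cells and 4 of 4T1-Sca1- cells, both untreated and of the same line. The source labels describe sorting from the parental line, whereas the extraction notes name tumor as the stained material and the sort labels add a CD45- gate, and these descriptions were not reconciled here. No label says that the 4 replicates of a fraction were separate sorts or cultures, so p-values measure only the spread between these libraries, which may be technical.

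Library totals were 15041995 to 16968215 counts in 4T1-Sca1+ and 13561804 to 16142836 in 4T1-Sca1-. Ly6a averaged 167 ± 20.2 normalized counts (SD, n = 4) in 4T1-Sca1+ and 1.79 ± 1.73 in 4T1-Sca1-, in the direction of the labels. Normalized counts are the deposited counts divided by a median-of-ratios size factor for each library. The 4T1-Sca1+ replicate 3 stood apart from its group, with a chi-square per gene of 7.06 to 10.2 against the other 3 libraries, compared with 1.90 to 5.60 for every other pair of libraries of the same fraction, so it is given separately where it bears on a value.

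Early response genes are transcribed within minutes of a stimulus, without new protein synthesis. Growth factors act through RAS and ERK on ternary complex factors (ELK1, ELK3 and ELK4), which sit with serum response factor (SRF) on CArG boxes, while cAMP and calcium act through CREB on cAMP response elements (CRE). EGR proteins are zinc finger transcription factors that bind GC-rich sites, and NR4A proteins are orphan nuclear receptors whose activity is set largely by their abundance. The IER genes encode short, unrelated or loosely related proteins that are induced by the same stimuli.

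The promoter stretches that hold CArG boxes or the short CRE motif are shown because these motifs belong to the SRF and CREB routes just named. Each is RefSeq sequence of build GRCm38.p6, written 5′ to 3′ on the strand of the gene, with CArG boxes and matches of TGACG in capitals, the latter reading CGTCA where the match was on the other strand. RefSeq windows from 250 bases before to 50 bases after a transcription start were matched for 7 of the 10 genes, and those of Egr1, Egr3 and Ier2 were not matched. The stretch of Srf was on the minus strand at chr17:46556203-46556375, upstream of the annotated gene, and that of Egr2 was on the plus strand at chr10:67537746-67537830, in an intron of longer annotated transcripts. The stretch of Nr4a1 was at chr15:101266601-101266822 on the plus strand, in an intron of a longer transcript, that of Nr4a2 at chr2:57124098-57124215 on the minus strand and that of Nr4a3 at chr4:48045062-48045152 on the plus strand, both upstream of the annotated gene.
Srf: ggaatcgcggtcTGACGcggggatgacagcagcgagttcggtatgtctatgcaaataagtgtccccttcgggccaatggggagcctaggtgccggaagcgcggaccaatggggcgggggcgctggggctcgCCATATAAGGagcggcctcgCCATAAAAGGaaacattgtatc
Egr2: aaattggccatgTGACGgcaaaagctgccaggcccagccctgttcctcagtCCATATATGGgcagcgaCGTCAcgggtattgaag
Nr4a1: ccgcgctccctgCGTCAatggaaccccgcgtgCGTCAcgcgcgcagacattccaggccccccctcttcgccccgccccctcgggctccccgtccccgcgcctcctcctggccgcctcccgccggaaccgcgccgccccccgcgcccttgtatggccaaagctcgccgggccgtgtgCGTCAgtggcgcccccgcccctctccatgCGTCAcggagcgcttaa
Nr4a2: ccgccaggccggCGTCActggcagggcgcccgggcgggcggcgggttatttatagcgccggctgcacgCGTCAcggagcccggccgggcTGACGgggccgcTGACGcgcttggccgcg
Nr4a3: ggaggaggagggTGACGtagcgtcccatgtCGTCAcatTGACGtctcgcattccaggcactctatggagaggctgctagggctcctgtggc

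Srf had 2 CArG boxes, with first bases at positions -82 and -62 from its transcription start, and an ETS core (CCGGAA) at -122. Egr2 held the CArG box shown in 3 of its 5 windows, since these windows belong to nearby start sites and share sequence, and a further window held another box. The 7 genes had 11 windows, which share sequence within Egr2, and shares are given per window, on either strand, for all 32851 windows and for the 11740 windows of tested genes. A CArG box was in 5 of the 11 windows, 1.63% of all windows and 1.29% of those of tested genes. TGACG, which is also contained in the full CRE (TGACGTCA), was in 7 of the 11 windows (Egr2, Nr4a1, Nr4a2, Nr4a3 and Srf), 20.8% of all and 31.4% of those of tested genes. Nr4a1, Nr4a2 and Nr4a3 each had 4 matches, of which the last in Nr4a3 lay at its annotated first exon and is not shown. The ETS core was in 3 of the 11 windows (Egr2, Nr4a1 and Srf), 14.9% of all and 28.1% of those of tested genes. The SP1 motif GGGCGG was in 8 of the 11 windows, with at least 1 for each gene, 35.7% of all and 63.9% of those of tested genes. The TATA motif TATAAA was in 2 of the 11 windows (Nr4a2 and Srf), 13.6% of all and 6.87% of those of tested genes. No window of the 7 genes contained the full CRE, the EGR site GCGTGGGCG or the AP-1 site TGANTCA, which were in 3.19%, 1.24% and 5.20% of the windows of tested genes. A match describes the letters of a window and not a bound site.

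Of the 10 genes, 9 passed the filter on low counts, and Nr4a3 did not. Among the 9, Egr1, Egr2, Egr3, Nr4a1 and Ier2 were called higher in 4T1-Sca1+ (adjusted p under 0.05, edgeR quasi-likelihood test with Benjamini-Hochberg adjustment over 11717 genes), Nr4a2, Ier3 and Ier5 were called lower, and Srf was not called. Over all tested genes 61.5% were called, 31.3% higher and 30.2% lower, and since the contrast chose the genes nothing is read from their 8 calls beside these shares. The ranges of the 2 fractions did not overlap for Egr1, Egr2, Egr3, Ier2, Nr4a2 and Ier3, as was the case for 54.7% of all tested genes. The median log2 fold change of the 9 genes, which is the value of Nr4a1, was 0.35, against 0.01 over all tested genes. With offsets corrected for GC content these medians were 0.10 and -0.065. Nothing is read from this comparison either, since the contrast chose the genes. In bulk libraries such as these, fewer cells of a type and less RNA per cell cannot be told apart.

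**Figure D1:**
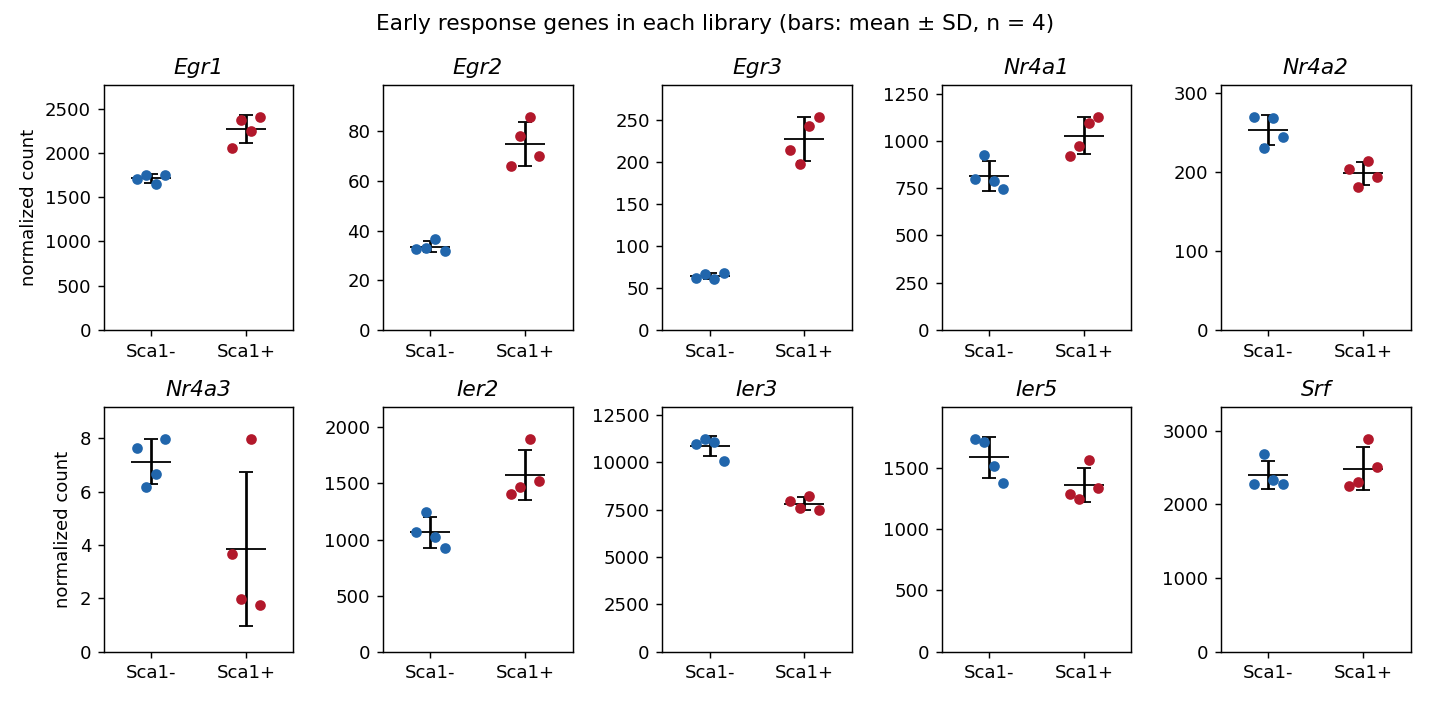
Normalized counts (y axis, linear from 0, separate scale for each gene) of the 10 early response genes in the 4 libraries of 4T1-Sca1- (blue) and of 4T1-Sca1+ (red). Points are libraries and bars are the mean ± SD. Egr1, Egr2, Egr3 and Ier2 lay higher in every 4T1-Sca1+ library, Nr4a2 and Ier3 lay lower, and the ranges of Nr4a1, Nr4a3, Ier5 and Srf overlapped.

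SRF is the DNA-binding protein that carries the ternary complex factors. Srf (chr17:46548329-46556175, minus strand) measured 2247, 2297, 2892 and 2508 normalized counts in 4T1-Sca1+ replicates 1 to 4 and 2281, 2679, 2337 and 2281 in 4T1-Sca1-. The ranges overlapped, with the highest value of each fraction in 4T1-Sca1+ replicate 3 and 4T1-Sca1- replicate 2. The log2 fold change of Srf was 0.07 ± 0.07 (SE), but it was -0.02 without 4T1-Sca1+ replicate 3, -0.03 with offsets corrected for gene length, and -0.40 ± 0.04 with offsets corrected for GC content, where it was called lower. The Srf transcript had the highest GC content of the set, 64.4%. Srf also overlaps the lincRNA Gm26904 on the opposite strand and the microRNA Mir6976, in both cases with 0 shared exon bases.

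Egr3, a zinc finger factor induced by mitogens and antigen receptors, differed most between the fractions. It measured 214, 197, 243 and 254 normalized counts in 4T1-Sca1+ and 62.1, 66.7, 61.2 and 67.3 in 4T1-Sca1-. Every 4T1-Sca1+ library was above every 4T1-Sca1- library, and the means of 227 ± 26.1 and 64.3 ± 3.14 (SD, n = 4) were 3.53-fold apart. The log2 fold change was 1.83 ± 0.11, and 1.76% of tested genes had a larger absolute one. Egr3 belongs to a signature of SCA1-positive cells that the study selected on these libraries, so that membership is not independent evidence of its direction.

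Egr2, known for its role in myelination and lymphocyte restraint, followed the same pattern at a lower level. Its normalized counts were 65.8, 77.9, 85.8 and 70.0 in 4T1-Sca1+ and 32.5, 32.9, 36.7 and 32.0 in 4T1-Sca1-. The ranges did not overlap, the highest value lay in 4T1-Sca1+ replicate 3, and the means of 74.9 ± 8.83 and 33.5 ± 2.18 gave a ratio of 2.23. The log2 fold change of 1.17 ± 0.15 was 1.10 without that library and 1.08 with GC-corrected offsets, and that of Egr3 was 1.80 and 1.75.

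Egr1, the archetype of the family, was the most abundant of its 3 members per exon length and the one with the smallest difference. It measured 2059, 2372, 2254 and 2409 normalized counts in 4T1-Sca1+ and 1701, 1750, 1645 and 1753 in 4T1-Sca1-. The ranges did not overlap, and the means of 2273 ± 157 and 1712 ± 50.6 were 1.33-fold apart, a log2 fold change of 0.42 ± 0.05. With offsets corrected for GC content, this value was 0.17 ± 0.05 and was still called higher. Per exon length, the mean level of Egr1 in 4T1-Sca1+ was 129 against 13.1 for Egr3 and 5.59 for Egr2, and in 4T1-Sca1- it was 93.2 against 3.56 and 2.41. These length-scaled levels are counts per kilobase of merged exon, scaled to the same sum in each library.

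The NR4A receptors went in different directions. Nr4a1 (NUR77), which controls T cell and macrophage responses and apoptosis, measured 918, 970, 1096 and 1126 normalized counts in 4T1-Sca1+ and 798, 925, 788 and 745 in 4T1-Sca1-. The lowest 4T1-Sca1+ value fell just below the highest 4T1-Sca1- value, that of replicate 2, and the means of 1028 ± 99.7 and 814 ± 77.4 were 1.26-fold apart. Its log2 fold change of 0.35 ± 0.07 was called higher, and with GC-corrected offsets the value of 0.10 ± 0.06 was not called.

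Nr4a2 (NURR1), a factor of dopaminergic neurons and of prostaglandin signaling, measured 204, 181, 214 and 194 normalized counts in 4T1-Sca1+ and 270, 231, 269 and 244 in 4T1-Sca1-. All 4T1-Sca1+ libraries were below all 4T1-Sca1- libraries, with means of 199 ± 14.0 and 254 ± 19.4 that were 1.28-fold apart. The log2 fold change was -0.34 ± 0.08. It was -0.38 when 4T1-Sca1+ replicate 3 was left out, and the GC correction gave -0.36. The stretches of Nr4a1 and Nr4a2 printed above hold 4 TGACG matches each, and a relation of these matches to the differences was not tested.

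Nr4a3 (NOR1) was close to the limit of detection. It had 4, 2, 8 and 2 raw counts in 4T1-Sca1+ and 8, 6, 6 and 7 in 4T1-Sca1-, totals of 16 and 27. The ranges overlapped because 4T1-Sca1+ replicate 3 reached 8 counts, while the other 3 libraries of that fraction were below all of 4T1-Sca1-. Without the filter on low counts the log2 fold change was -0.90 ± 0.50 and was not called, and at this depth a difference was not detectable by the count test.

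Of the IER genes, Ier2 was higher and Ier3 and Ier5 were lower in 4T1-Sca1+. Ier2, a nuclear protein linked to cell motility, measured 1408, 1464, 1900 and 1518 normalized counts in 4T1-Sca1+ and 1063, 1248, 1021 and 921 in 4T1-Sca1-. The fractions did not overlap, and each had its highest value in the library that was also highest for Srf. The means of 1573 ± 223 and 1063 ± 137 were 1.48-fold apart. The log2 fold change was 0.57 ± 0.09, 0.47 ± 0.06 without 4T1-Sca1+ replicate 3, and 0.22 with GC-corrected offsets, where it was called higher.

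Ier3 (IEX-1), a regulator of apoptosis and of ERK signaling, was the most abundant gene of the set per exon length. It measured 7983, 7586, 8218 and 7493 normalized counts in 4T1-Sca1+ and 10999, 11261, 11088 and 10097 in 4T1-Sca1-. No 4T1-Sca1+ library reached the lowest 4T1-Sca1- library, and the means of 7820 ± 340 and 10861 ± 521 were 1.39-fold apart. The log2 fold change was -0.46 ± 0.05, and with GC-corrected offsets it was -0.65.

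Ier5, a relative of Ier2 that promotes dephosphorylation of heat shock factor HSF1, had the smallest difference among the called genes. It measured 1289, 1247, 1561 and 1338 normalized counts in 4T1-Sca1+ and 1738, 1710, 1517 and 1380 in 4T1-Sca1-. The ranges overlapped, with means of 1359 ± 140 and 1586 ± 169 and a log2 fold change of -0.21 ± 0.07. The call was lost without 4T1-Sca1+ replicate 1 (-0.19) or replicate 2 (-0.18), without 4T1-Sca1- replicate 1 (-0.18) or replicate 2 (-0.18), and with library totals as the only scaling (-0.17). It was kept with GC-corrected offsets (-0.33), and also when 4T1-Sca1+ replicate 3 was left out (-0.29).

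The order of length-scaled levels was nearly the same in both fractions. In 4T1-Sca1+ the means fell from Ier3 (1756) through Ier2 (262), Srf (218), Egr1 (129), Ier5 (105), Nr4a1 (74.4), Egr3 (13.1), Nr4a2 (12.4) and Egr2 (5.59) to Nr4a3 (0.162). Ranges of neighbours overlapped for Ier2 with Srf, Egr1 with Ier5, and Egr3 with Nr4a2. In 4T1-Sca1- the order was Ier3 (2344), Srf (202), Ier2 (170), Ier5 (118), Egr1 (93.2), Nr4a1 (56.6), Nr4a2 (15.3), Egr3 (3.56), Egr2 (2.41) and Nr4a3 (0.290), with overlap between Srf and Ier2. Egr3 and Nr4a2, whose ranges overlapped in 4T1-Sca1+, did not overlap in 4T1-Sca1-.

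At the median, the early response genes were short and had few exons. Their median gene span was 6063 bases against 23476 over the tested genes with annotation. The median number of merged exons was 4.5 against 10. The median merged exon length was 3453.5 against 4484 bases, and the median GC content 53.3% against 49.8%. Gene spans in the set ran from 1240 to 41295 bases (Nr4a3) and merged exons from 1 to 10, the latter in Nr4a1 and Nr4a2. GC content moved with the contrast across all genes, since the median log2 fold change was -0.10, -0.04, 0.04 and 0.18 in 4 groups of 2904 genes from the lowest to the highest GC content. With GC-corrected offsets 39.5% of the called genes were higher in 4T1-Sca1+, and with length-corrected offsets 38.9%, compared with 50.9% without them. The median log2 fold change over all tested genes was -0.065 with GC-corrected and -0.075 with length-corrected offsets, against 0.01 without them. A small negative value in these fits is therefore not by itself a change of direction. Under the GC correction 4 of the 9 genes were called higher (Egr1, Egr2, Egr3 and Ier2) and 4 lower (Nr4a2, Ier3, Ier5 and Srf). Over all 11717 tested genes that fit called 3096 higher and 4745 lower. Whether the GC trend is technical was not tested.

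**Figure D2:**
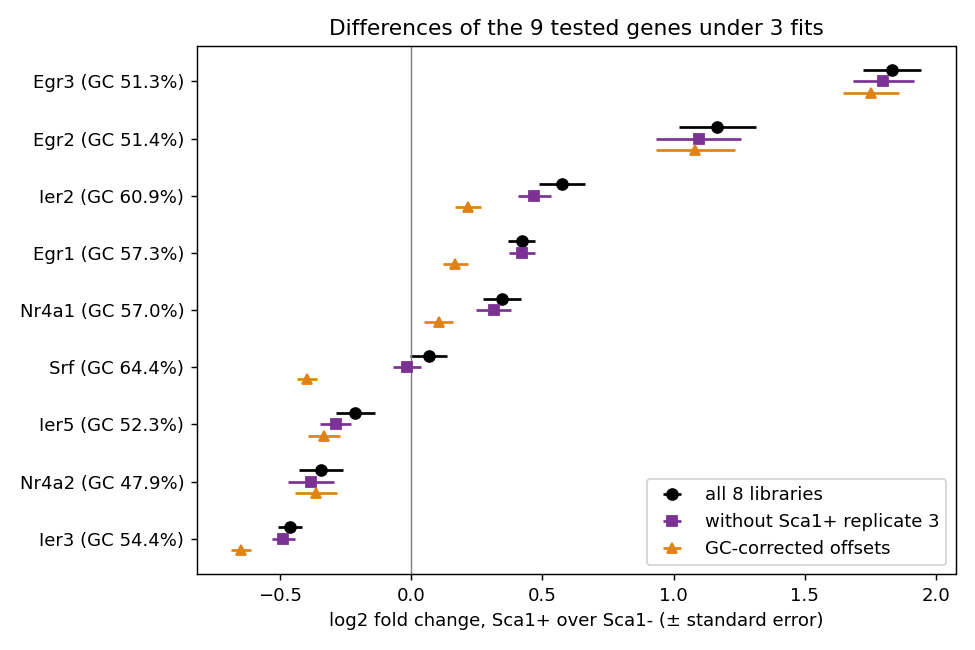
Log2 fold change of 4T1-Sca1+ over 4T1-Sca1- (x axis, bars ± SE) for the 9 tested early response genes, with the GC content of each in its label. Black circles use all 8 libraries, purple squares leave out 4T1-Sca1+ replicate 3 and orange triangles use GC-corrected offsets. Egr3 and Egr2 stayed above 1 in all 3 fits, Ier2, Egr1 and Nr4a1 moved closer to 0 under the GC correction, and Srf moved from 0.07 to -0.40.

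Within the fractions, the genes deviated together in part. The deviation of log2 CPM (library-size-scaled counts) from the group mean, averaged over the 9 tested genes, was highest in 4T1-Sca1+ replicate 3 (0.138) and 4T1-Sca1- replicate 2 (0.0722), and lowest in 4T1-Sca1+ replicate 1 (-0.0898). The 4T1-Sca1+ replicate 3 had the highest value of its group for 6 of the 9 genes. In these same 2 libraries the deviations of all genes rose with GC content, by 0.0146 and 0.00886 per percent, whereas the slopes of the other 6 libraries lay between -0.00648 and -0.000497. The part of GC content in the shared deviations was not tested.

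Over the 8 libraries, the pairwise correlations of these deviations were positive for 30 of 36 gene pairs, with a median Pearson r of 0.351. The closest pair was Ier2 with Srf (r = 0.925, and 0.844 without 4T1-Sca1+ replicate 3), and the lowest was Egr1 with Nr4a2 (r = -0.594). Without 4T1-Sca1+ replicate 3, 24 pairs were positive and the median was 0.163. The points share library depth and base composition, so these values are a description. The 5 genes outside the set whose deviations were most like the mean of the 9, among 10338 genes, were Kdf1 (r = 0.995), Dazap1 (0.994), Klf16 (0.990), P3h3 (0.988) and Mrpl54 (0.988), with GC contents of 58.0% to 61.7%.

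**Figure D3:**
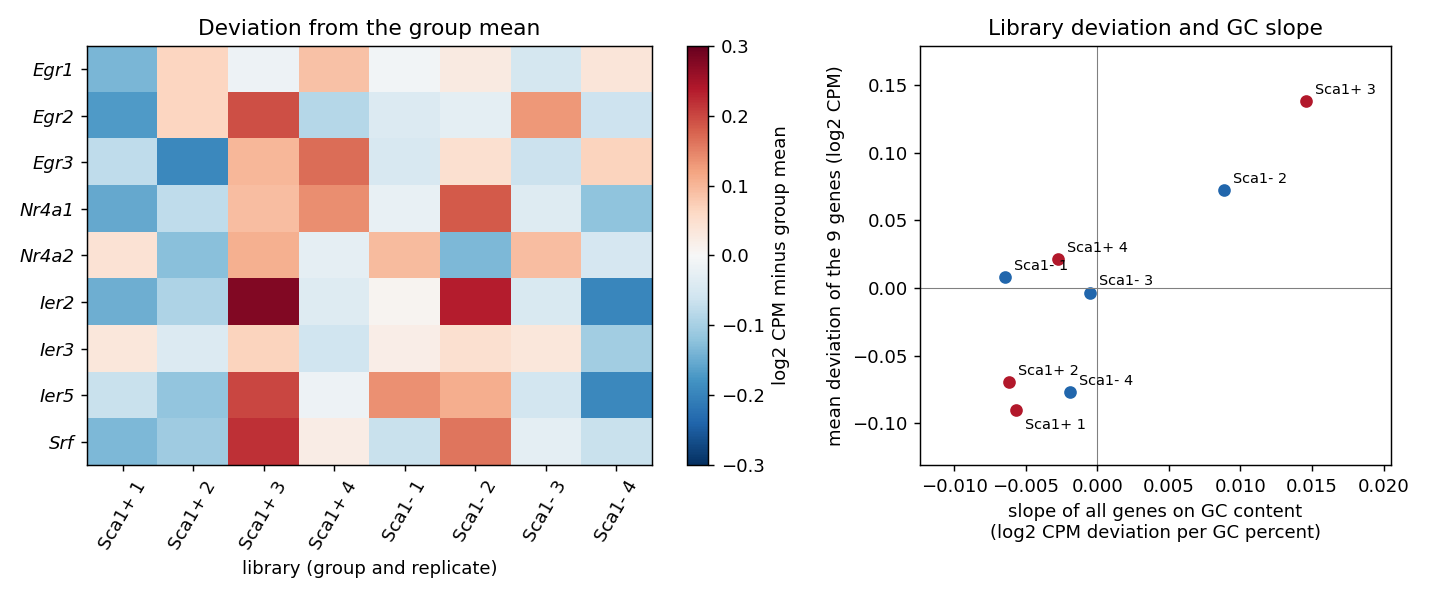
Left, deviation of log2 CPM from the group mean (color scale, red above and blue below) for the 9 tested early response genes in each of the 8 libraries. Right, the mean of these deviations in a library (y axis, log2 CPM) against the slope of all genes' deviations on GC content (x axis, log2 CPM per GC percent), where 4T1-Sca1+ replicate 3 and 4T1-Sca1- replicate 2 lie apart from the other 6 libraries.

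The factors that act with SRF, EGR and NR4A proteins were examined from lists. The edgeR adjusted p-values given for them are over all tested genes. All gene lists were written with earlier results of these data known, so their counts and medians are a description. Of 6 tested ternary complex factors and SRF cofactors, Elk1 rose from 531 ± 14.0 to 749 ± 73.9 normalized counts (log2 fold change 0.51 ± 0.07, adjusted p = 3.9e-06) and Elk4 from 284 ± 13.5 to 377 ± 11.1 (0.42 ± 0.07, adjusted p = 2.8e-05) in 4T1-Sca1+. Elk3, the repressor-type member, was lower by a small margin (-0.10 ± 0.04, adjusted p = 0.043). This call was lost with the replicate block (adjusted p = 0.077) and without 4T1-Sca1+ replicate 1 or 4 or 4T1-Sca1- replicate 2 or 4 (-0.11 to -0.09). It was also lost with a minimum of 10 counts in every library (adjusted p = 0.067), with library totals alone (-0.06, adjusted p = 0.22) and with upper-quartile scaling (-0.07, adjusted p = 0.14). The actin-regulated coactivators Mrtfa (-0.04 ± 0.06) and Mrtfb (-0.10 ± 0.06) and the cofactor Fhl2 (-0.07 ± 0.05) did not pass the test. The median of the 6 was -0.06. With GC-corrected offsets 2 of the 6 were higher and 4 lower (median -0.15), the lower ones being Elk3 (-0.14 ± 0.04), Mrtfa, Mrtfb and Fhl2. Over all 11717 tested genes that fit called 3096 higher and 4745 lower. Elk3 was also called lower with length-corrected offsets (-0.20 ± 0.04).

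Both tested EGR corepressors were higher in 4T1-Sca1+, beside 31.3% of all tested genes called higher. Nab2, itself an EGR target that binds EGR proteins and limits their activity, measured 845, 783, 1024 and 872 normalized counts in 4T1-Sca1+ and 527, 581, 496 and 471 in 4T1-Sca1-. The ranges did not overlap, and the log2 fold change was 0.77 ± 0.08 (adjusted p = 2.0e-07), or 0.44 ± 0.05 with GC-corrected offsets. Nab1, its constitutive relative, differed by 0.14 ± 0.05 (adjusted p = 0.026), a call that was lost without 4T1-Sca1+ replicate 2 or 4 or 4T1-Sca1- replicate 2 or 3 (0.11 to 0.12), with length-corrected offsets (0.05, adjusted p = 0.42) and with DESeq2 (adjusted p = 0.05045).

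Among 8 tested NR4A partners and CREB factors, 5 passed the test as higher and 0 as lower (median 0.25), beside 61.5% of all tested genes called in either direction and 31.3% called higher. Rxra, the retinoid X receptor that pairs with NR4A1 and NR4A2, rose with a log2 fold change of 0.61 ± 0.05 (adjusted p = 1.2e-08), the CREB relative Atf1 with 0.51 ± 0.06 (adjusted p = 1.3e-06) and the CREB coactivator Crtc1, named after its values were seen, with 0.44 ± 0.08 (adjusted p = 0.00012). With GC-corrected offsets Rxra was 0.36 ± 0.04. Rxrb (0.27 ± 0.08) and Crtc3 (0.23 ± 0.06) were called higher. With GC-corrected offsets they were -0.10 ± 0.05 and -0.01 ± 0.05, and neither was called. Creb1 (-0.08 ± 0.07), Crem (-0.16 ± 0.13) and Crtc2 (-0.05 ± 0.06) did not pass the test. With GC-corrected offsets 3 of the 8 were higher and 1 was lower, beside 3096 and 4745 of all 11717 tested genes.

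In the RAS-ERK cascade, 4 of 14 tested genes were higher and 5 lower (median log2 fold change -0.02), beside 31.3% and 30.2% of all tested genes. Mapk3, which encodes the kinase ERK1, was higher by 0.60 ± 0.07 (adjusted p = 1.3e-06), or by 0.34 ± 0.05 with GC-corrected offsets, and Rps6ka5, the kinase MSK1 that phosphorylates CREB, was higher by 0.27 ± 0.10 (adjusted p = 0.024). The call of Rps6ka5 was lost without 4T1-Sca1+ replicate 4 (0.26) or 4T1-Sca1- replicate 2 (0.18) or 3 (0.25), with DESeq2 (adjusted p = 0.066), with length-corrected offsets (0.20, adjusted p = 0.075) and with limma on the deposited signal plus 8 (adjusted p = 0.052). Of 11 tested ERK feedback genes, 6 were higher and 3 lower (median 0.26), beside the same shares of all tested genes. The ERK phosphatases Dusp4 (1.05 ± 0.06, adjusted p = 1.4e-10) and Dusp6 (0.64 ± 0.04, adjusted p = 9.3e-10) were higher, whereas Dusp5 (-0.92 ± 0.06, adjusted p = 1.2e-09) and Dusp1 (-0.33 ± 0.06, adjusted p = 0.00017) were lower, the last by more (-0.51) with GC-corrected offsets.

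The list of other primary response genes was also written with earlier results of these data known, so its counts are a description. Of 30 tested, 21 were lower and 6 higher in 4T1-Sca1+ (median -0.28), against 30.2% and 31.3% of all tested genes. The kinase Plk2 fell by 1.60 on the log2 scale (adjusted p = 4.1e-13) and the zinc finger factor Klf6 fell by 1.40 (adjusted p = 1.8e-12). Ier5l, a relative of Ier5 (0.98 ± 0.14, adjusted p = 9.8e-06), and the mRNA decay factor Zfp36l2 (0.77 ± 0.07, adjusted p = 8.2e-08) were higher. With GC-corrected offsets the counts were 23 lower and 4 higher, beside 4745 and 3096 of all 11717 tested genes. In that fit Ier5l was 0.53.

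Of 8 AP-1 genes including Atf3, 3 were lower and 1 was higher, against 30.2% and 31.3% of all tested genes. Atf3, a stress-induced repressor, fell by 2.42 on the log2 scale (adjusted p = 1.2e-14), Fosb was -0.35 ± 0.09 and Fosl2 -0.16 ± 0.05. Jund was 0.48 ± 0.14, but with GC-corrected offsets it was -0.07 ± 0.07 and was not called. Under these offsets 6 genes were lower and 0 were higher, beside 4745 and 3096 of all 11717 tested genes. Fosb and Fosl2 were then -0.56 and -0.31. The value of Jund was 0.31 without 4T1-Sca1+ replicate 3, and its call was lost with DESeq2 (adjusted p = 0.074).

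SRF target genes regulated through MRTF and actin were lower in 9 and higher in 2 of 15 tested genes (median -0.21). These counts stand beside 30.2% and 31.3% of all tested genes. The matricellular genes Ccn2 (-1.60 ± 0.05, adjusted p = 3.9e-14) and Ccn1 (-1.21 ± 0.04, adjusted p = 1.2e-13) were lower, and the contractile genes Mylk (1.33 ± 0.19, adjusted p = 1.2e-05) and Tpm2 (1.00 ± 0.10, adjusted p = 1.7e-07) were higher. Delayed growth factor response genes were divided, with 5 higher and 5 lower of 10 tested (median 0.12), beside the same shares of all tested genes. Etv4 (0.69 ± 0.06, or 0.39 with GC-corrected offsets) and Etv5 (0.59 ± 0.06), ETS factors downstream of ERK, were higher, and the EGF receptor ligand Hbegf (-0.53 ± 0.05) was lower.

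Heat shock genes, which respond to HSF1, were lower in 5 and higher in 2 of 8 tested genes (median -0.25). Over all tested genes 30.2% were lower and 31.3% higher. The mitochondrial chaperonin genes Hspd1 (-0.47 ± 0.06, adjusted p = 3.9e-06) and Hspe1 (-0.36 ± 0.06, adjusted p = 7.8e-05) were lower. Hspa1b (0.41 ± 0.10, adjusted p = 0.0014) and Dnajb1 (0.20 ± 0.05, adjusted p = 0.0020) were higher, and both of these calls were lost with GC-corrected offsets.

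**Figure D4:**
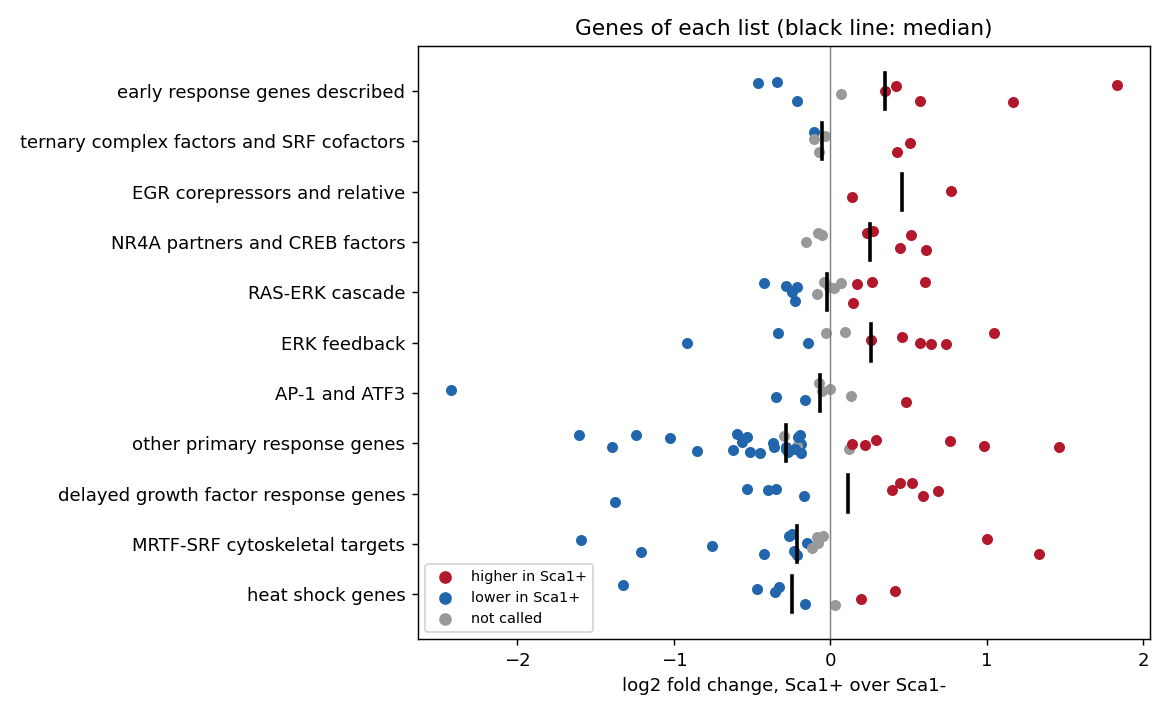
Log2 fold change of 4T1-Sca1+ over 4T1-Sca1- (x axis) for the tested genes of each list (rows), with points colored by call (red higher, blue lower, grey not called) and a black line at the median of a list. The 9 early response genes, which were chosen with this contrast in view, had a median of 0.35. The other lists were written with earlier results of these data known. Other primary response genes (-0.28), MRTF-SRF targets (-0.21) and heat shock genes (-0.25) had medians below 0. Vertical scatter within a row only separates the points.

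Markers of other cell types summed to far fewer counts than the epithelial markers, although some lay at the level of the less abundant early response genes. Of 10 leukocyte markers counted, the 4 that were tested (Cd68, Cd74, Csf1r and S100a8) were higher in 4T1-Sca1+, beside 31.3% of all tested genes. Csf1r and S100a8 were named after their values were seen. S100a8 had 164 raw counts in 4T1-Sca1+ and 28 in 4T1-Sca1-. It passed the filter on low counts through the fraction where it was higher, so its direction is not independent of being tested. The summed leukocyte markers were 408 to 472 normalized counts in 4T1-Sca1+ and 226 to 264 in 4T1-Sca1-, mostly from Cd68 and Cd74. Ptprc, which encodes CD45, averaged 2.32 and 0.535 normalized counts, and 6 of the 10 markers had at most 10 counts in every library. Fibroblast markers summed to 635 to 671 against 395 to 468, mostly from Pdgfra (means of 560 and 364). Endothelial markers summed to 33.8 to 40.9 against 42.3 to 63.9. Epithelial markers were abundant in both, with sums of 44288 to 49011 and 44154 to 47318. Of 8 tested genes 2 were called higher and 3 lower, beside 31.3% and 30.2% of all tested genes. The keratins Krt18 (0.38 ± 0.04) and Krt8 (0.31 ± 0.04) were higher, and fell to 0.15 and 0.07 with GC-corrected offsets, where Krt8 was not called. E-cadherin Cdh1 (-0.69 ± 0.04) and Cldn4 (-0.62 ± 0.06), a tight junction claudin, were lower. The part of other cell types in the values of the early response genes was not tested.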

How the data were processed

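The authors deposited raw counts per gene, as whole numbers for 16341 Ensembl genes in 8 libraries, and a second table of the same libraries with size-factor-normalized values, a signal that was used only in alternatives. Submitters' processing notes name cutadapt 1.16, STAR 2.5.3a and the builds GRCm38 and mm10. The counting tool and its use of strand are not given in the sources used here. Genes were annotated with GENCODE M21 (GRCm38), which held 16202 of them. No column of other samples was present.

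The counts were tested with edgeR 4.0.16 in R 4.3.3 (TMM scaling, filterByExpr, quasi-likelihood test with Benjamini-Hochberg adjustment, threshold 0.05), comparing 4 libraries with 4 without covariates, on 11717 genes after 4624 were filtered out. Log2 fold changes are 4T1-Sca1+ over 4T1-Sca1-, with standard errors of that fit. Counting errors grow for low counts, and the common biological coefficient of variation was 0.0541. GC and length corrections subtracted a loess trend (span 0.3) of each library. The scripts were tested on simulated data.

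Alternatives were DESeq2 1.42.0 and its size factors, limma 3.58.1 (voom, and log2 of the deposited signal plus 1 or 8), other count filters and thresholds, GC and length offsets, a replicate block, and leaving out each library. Library totals alone, upper-quartile scaling, and list counts under GC offsets or without 4T1-Sca1+ replicate 3 were chosen after seeing the data.

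The early response genes and gene lists were chosen with earlier results of these data known. From each list the called genes with the 2 highest and 2 lowest log2 fold changes were named, where the mean normalized count was at least 50, and uncalled genes only for the partners of SRF, EGR and NR4A. Some genes that this rule named are not reported here. Crtc1, Csf1r and S100a8 were named outside it after their values were seen, and Ly6a and Ptprc as the genes of the sort markers. Motifs were searched in RefSeq promoter windows (GRCm38.p6).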

Additional observations from a re-analysis of the deposited data

Results flagged for a closer look

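In 4T1-Sca1-, the normalized count of Srf in replicate 2 (2679) lay far from the other 3 libraries (2281 to 2337). Its gap to the nearest of them was 0.859 of the group's whole range, above Dixon's critical value for 4 samples. This was 1 of 20 groups examined over the 10 genes and 2 fractions, and chance alone flags about 1 in 20.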

How the results depend on the processing

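With a minimum absolute log2 fold change of 1, 612 genes were higher and 103 lower, including 2 early response genes that were higher (Egr2 and Egr3) and 0 that were lower. The direction of Srf was reversed with GC-corrected offsets (-0.40, and -0.40 with the replicate block), where it was called lower. Its value was also negative, but not called, with length-corrected offsets (-0.028 ± 0.067) and without 4T1-Sca1+ replicate 3 (-0.015 ± 0.053). Leaving out each library gave -0.015 to 0.12. With GC-corrected offsets, without and with the block, Crtc3 was -0.0102 and -0.0104, Rxrb -0.10 and -0.10, and Jund -0.074 and -0.060. None of these values was called. GC-corrected offsets gave 3096 genes higher and 4745 lower, and library totals alone 4118 and 2984. The cause of these changes was not tested. Nr4a3 was called lower only by limma on the deposited signal (-0.91 with a pseudocount of 1 and -0.38 with 8).

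Same-numbered libraries had deviation correlations of 0.0957, -0.150, -0.0339 and -0.00107, and differently numbered libraries were not compared. Whether the replicate numbers pair the libraries was therefore not settled. With a replicate block 3605 genes were higher and 3452 lower, and 5 and 3 early response genes. Values for Nr4a3 and the low marker genes are limited by depth.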
